A study of Caenorhabditis elegans with 6 samples.

Results

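Expression of the COL family of cuticle collagens was examined in Caenorhabditis elegans larvae that had hatched without food and stayed in the first stage (L1). The family was taken as every gene whose name begins with col- and a number, read through probe sets that the platform annotation assigns to a single gene. This gave 128 genes among 17118 measured, represented by 144 probe sets, and the brightest probe set stood for each gene. A further 17 probe sets that name several genes, at least 1 of them a COL gene, were left out. RNA came from whole wild-type larvae and from larvae with the nonsense mutation lin-35(n745), which affects the nematode homologue of the retinoblastoma protein, with 3 arrays per genotype that the labels call biological replicates. Embryos of both genotypes were released by bleaching and left to hatch at 20 °C in S-basal without cholesterol or food, and the larvae were collected at 30 h. No fed larvae were part of the series, so each difference is between genotypes within starvation. The lin-35 transcript showed no clear difference (log2 difference 0.06, SE 0.19, limma adjusted p = 0.894), so its level does not check the genotype labels.

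The cuticle is an extracellular coat that the epidermis (hypodermis) secretes and replaces at each moult. It is built mostly of small collagens with short Gly-X-Y repeats, which are hydroxylated, assembled into trimers, trimmed by proteases and then crosslinked through tyrosines. The genes form a large family, and many members are used in a particular larval stage, in the dauer larva or in the adult. The first larval cuticle is made before hatching, and larvae that hatch without food arrest before the first moult. LIN-35 is a transcriptional repressor of the DREAM complex and is best known for silencing cell cycle and germline genes.

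Expression is given as the log2 value of each probe set after robust multi-array averaging (RMA). Differences are lin-35(n745) minus wild type in log2 units, where 1 is 2-fold. A gene was called, and is said to rise or fall, when limma's Benjamini-Hochberg adjusted p over 22548 probe sets was below 0.05, a limit that 5.59% of probe sets passed as lower and 5.69% as higher. Brightness also depends on the probes themselves, so it sorts probe sets and does not rank genes by transcript number. Members were called abundant when their mean over the 6 arrays lay above the 75th percentile of all probe sets (8.12) and dim when it lay below the 50th (6.00), which gave 22 abundant, 34 middle and 72 dim members. Means ran from 3.61 for col-163 to 13.36 for col-93. The members closest to the upper limit were col-153 (8.10, difference −0.61) below it and col-91 (8.64, difference −1.70) above it. Those closest to the lower limit were col-180 (6.00, difference −0.03) and col-173 (6.10, difference −0.22). The mean covers both genotypes, so a member can pass a limit through 1 genotype alone. Among called members col-91 passed the upper limit through the wild type (means 9.49 and, in the mutant, 7.79). At the lower limit col-53 passed through the wild type (6.77 and 5.71), and col-109 (5.35 and 7.42) and col-113 (5.81 and 7.34) through the mutant. The called members col-48 (4.62 and 6.66) and col-74 (4.82 and 6.33) were classed as dim through the wild type, with mutant means above that limit.

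Of the 128 COL genes, 10 fell and 5 rose in lin-35(n745). These are 7.81% and 3.91% of the family, beside 6.12% of all genes called lower and 5.71% called higher, so that over the whole family the shares of calls lay near the background. The differences leaned to one side: 96 members were below 0 and 32 above, and the median was −0.25, against −0.04 over all genes. The mutant arrays lay entirely below the wild-type arrays for 33 members, where 18.2% of all genes did so, and entirely above for 8, where 13.1% did so. In whole larvae, fewer cells of a type and less RNA per cell cannot be told apart.

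Most of the falls were in abundant members. Among the 22 abundant COL genes 8 fell and none rose, with 36.4% called lower against 13.1% of all abundant genes and 0 called higher against 6.18%. These 8 include col-91, which passed the abundant limit through its wild-type values alone. All 22 had a negative difference, from −2.11 to −0.27, with a median of −0.59, where the median of all abundant genes was −0.13 and 58.3% were negative. Among the 34 middle members 2 fell and 3 rose, or 5.88% and 8.82%, beside 8.09% and 11.5% of all middle genes, and their median was −0.23. Among the 72 dim members none fell and 2 rose (2.78%), beside 1.48% and 2.56% of all dim genes, and their median was −0.13. At an unadjusted limma p below 0.05, 11 abundant, 12 middle and 8 dim members were lower and 0, 4 and 3 were higher. The share of all genes at this unadjusted limit was not counted. The mutant arrays lay wholly below the wild type for 10 abundant, 12 middle and 11 dim members, beside 29.1%, 22.1% and 10.6% of all genes of each class, and wholly above for 0, 5 and 3, beside 16.2%, 19.6% and 8.32%. RMA compresses differences between dim probe sets, and a dim value can be background rather than expression.

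**Figure D1:**
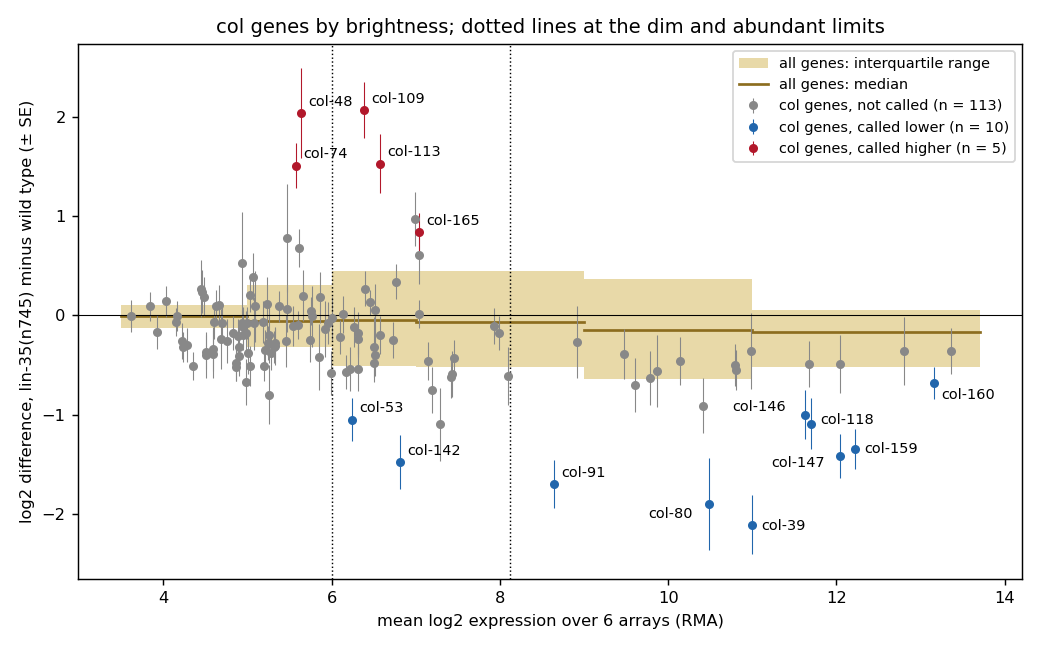
Log2 difference (lin-35(n745) minus wild type, error bars SE) of each of the 128 COL genes against its mean log2 expression over 6 arrays, with the interquartile range and median of all genes in bands of brightness as shading and a line. The 10 members called lower include 8 to the right of the abundant limit at 8.12, and the 5 called higher lie between 5.58 and 7.04.

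**Figure D2:**
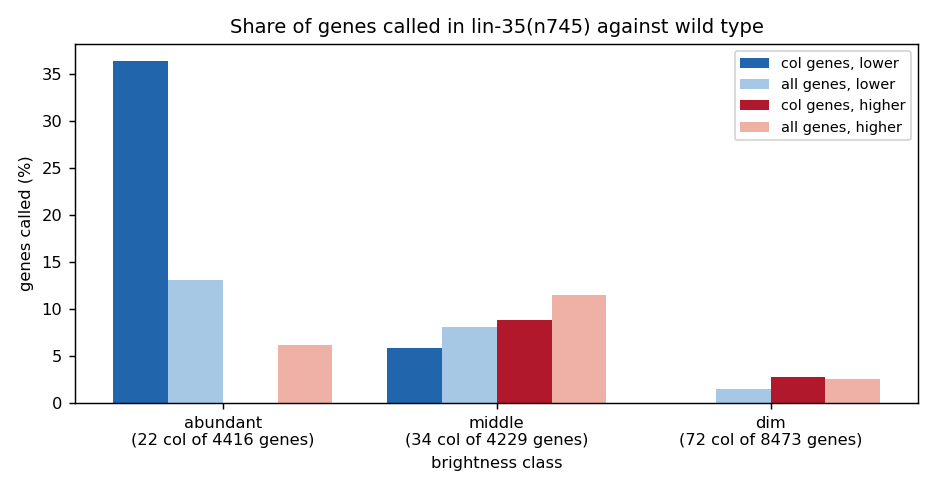
Percentage of COL genes and of all genes called lower or higher in each brightness class. In the abundant class 36.4% of COL genes were lower against 13.1% of all abundant genes, while the middle and dim shares lay closer to those of all genes.

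The calls were also counted in finer bands of brightness. Of the 9 members with a mean above 11 log2 units 5 fell (55.6%, against 11.5% of all genes that bright), and of the 11 members between 9 and 11 the count was 2 (18.2%, against 15.7%). In the lower bands the shares were near those of all genes. Between 7 and 9, 1 of 14 members fell and 1 rose (7.14% each, against 9.52% of all genes lower and 9.67% higher), and between 6 and 7, 2 of 22 fell and 2 rose (9.09% each, against 7.41% and 12.4%). Of the 36 members between 5 and 6 none fell and 2 rose (5.56%, against 4.07% lower and 7.09% higher). None of the 36 below 5 was called, where 0.626% of all genes were lower and 1.08% higher.

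The greatest fall in the family was that of col-39. Its log2 values were 12.06, 11.42 and 12.67 in the wild-type arrays and 9.88, 10.04 and 9.91 in the mutant arrays. The mutant arrays agreed closely and all lay below the lowest wild-type array, so that the mean went from 12.05 ± 0.63 to 9.94 ± 0.08 (SD, n = 3), a difference of −2.11 (SE 0.30, limma adjusted p = 0.00685), or 4.31-fold lower. The cuticle collagen col-80 read 11.63, 10.64 and 12.04 in the wild type and 10.16, 9.73 and 8.72 in the mutant. Its groups were also apart, but with a wide spread in both, and the difference was −1.90 (SE 0.46, limma adjusted p = 0.0418). In the gene table col-39 and col-80 are neighbours, and col-79 on the other side of col-39 was dim and differed by −0.25 without passing the threshold.

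The less bright col-91 fell by a similar amount. It read 9.40, 9.10 and 9.97 in the wild type against 7.88, 7.87 and 7.60 in the mutant, without overlap, a difference of −1.70 (SE 0.24, limma adjusted p = 0.00642). The collagen col-159 read 12.79, 12.64 and 13.25 against 11.46, 11.71 and 11.45, a difference of −1.35 (SE 0.20, adjusted p = 0.00761). Its neighbour col-160 read 13.55, 13.30 and 13.64 against 12.86, 12.91 and 12.68, which was a smaller difference of −0.68 (SE 0.16, adjusted p = 0.0362). For both genes every mutant array lay below every wild-type array.

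The abundant members col-147 and col-146, which are not among the pairs of direct COL neighbours, were also called. In col-147 the mutant arrays were almost level, at 11.33, 11.31 and 11.34, below wild-type values of 12.75, 12.33 and 13.17, with a difference of −1.42 (SE 0.22, limma adjusted p = 0.00945). In col-146 the mutant arrays stood at 11.16, 11.10 and 11.09 and the wild type at 12.12, 11.62 and 12.61, which took the mean from 12.12 ± 0.49 to 11.12 ± 0.04 (SD, n = 3; SE of the difference 0.25, adjusted p = 0.0459). The remaining called abundant member, col-118, read 12.28, 12.05 and 12.40 in the wild type and 11.16, 10.66 and 11.65 in the mutant, with a difference of −1.09 (SE 0.26, adjusted p = 0.0402). Here it was the mutant that spread more (SD 0.50 against 0.18), and its replicate 3 came closest to the wild type.

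Both middle members that fell, col-142 and col-53, were lower in every mutant array. For col-142 the wild-type values were 8.05, 7.08 and 7.53 and the mutant values 6.24, 6.21 and 5.77, a difference of −1.48 (SE 0.27, limma adjusted p = 0.0161). For col-53 the means were 6.77 ± 0.21 and 5.71 ± 0.35 (SD, n = 3), the lowest wild-type array at 6.59 and the highest mutant array at 5.92, with a difference of −1.05 (SE 0.22, adjusted p = 0.0252). The neighbour of col-142, the dim gene col-141, differed by −0.38 and was not called.

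Of the 15 called members 6 kept the call whichever single array was left out, 4 of them lower (col-39, col-91, col-147 and col-159) and 2 higher (col-109 and col-74). The remaining calls depended on single arrays. For col-142 the adjusted p rose to 0.061 once mutant replicate 3 was removed, and for col-53 it rose to 0.1 and 0.0681 on removing wild-type replicates 1 or 2 and to 0.0524 on removing mutant replicate 3. For col-80 the values were 0.131 and 0.096 on removing wild-type replicates 1 or 3, and 0.0762 and 0.113 on removing mutant replicates 2 or 3. For col-118 removing any array except mutant replicate 3 ended the call (0.0662 to 0.127), and for col-146 and col-160 removing any array except wild-type replicate 2 did so (0.0847 to 0.135 and 0.0603 to 0.139). The count of abundant members called lower was 4, 9 and 4 on removing wild-type replicates 1, 2 and 3 in turn, and 5, 4 and 5 on removing mutant replicates 1, 2 and 3. The count over the whole family was 5, 10 and 6 for the wild-type removals and 7, 6 and 6 for the mutant removals. Of all probe sets, 1.57%, 2.3% and 3.47% were called lower on the wild-type removals in that order. On the mutant removals 5.35%, 5.48% and 2.58% were, beside 5.59% with all arrays. Of members not called with all arrays, col-119 and col-133 were called on removing wild-type replicate 2 and col-71 on removing mutant replicate 3.

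**Figure D3:**
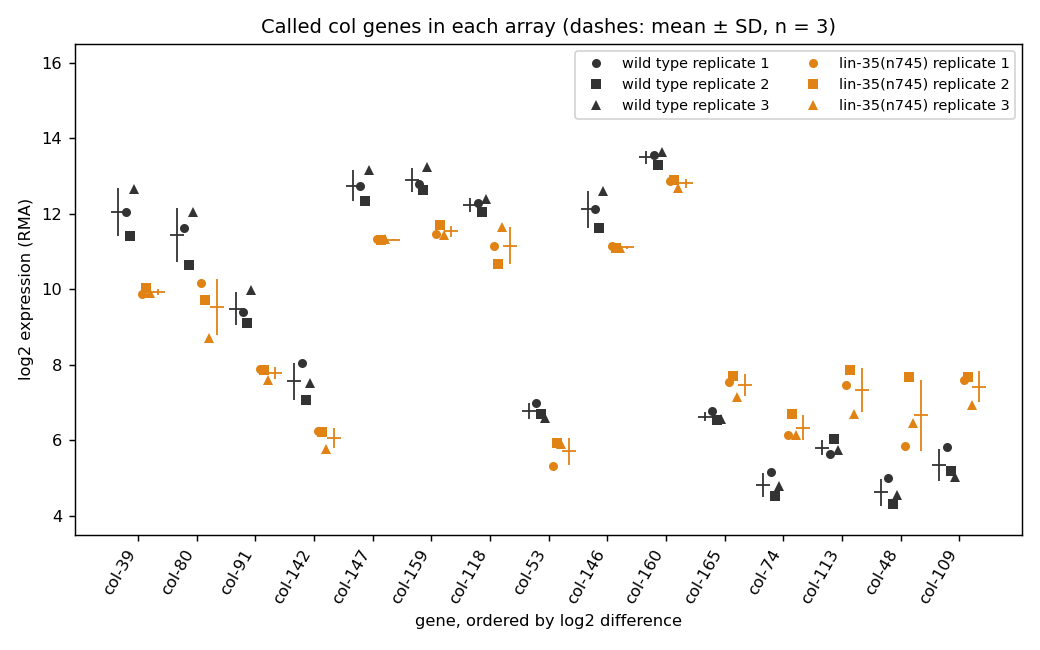
Log2 expression of the 15 called COL genes in each array, ordered by difference, with wild type in dark grey and lin-35(n745) in orange and dashes for the mean ± SD (n = 3). For each of them the 3 mutant arrays lie wholly below or wholly above the 3 wild-type arrays, with col-39 falling from a mean of 12.05 to 9.94 and col-109 rising from 5.35 to 7.42.

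The other 14 abundant members had negative differences that did not pass the threshold. They included col-133 (−0.91, SE 0.28, limma adjusted p = 0.0795), whose groups did not overlap, col-95 (−0.70, SE 0.27) and col-119 (−0.63, SE 0.27). The brightest member of the family, col-93, read 13.73, 13.09 and 13.81 in the wild type and 13.05, 13.39 and 13.09 in the mutant. Its groups overlapped through wild-type replicate 2, and the difference of −0.36 had a 95% interval of −0.90 to 0.17 (adjusted p = 0.383). Likewise col-125 read 13.19, 12.44 and 13.31 against 12.03, 13.11 and 12.71 (−0.36, interval −1.15 to 0.42, adjusted p = 0.588), and col-107 read 12.38, 11.66 and 12.81 against 11.64, 11.97 and 11.76 (−0.49, interval −1.17 to 0.19, adjusted p = 0.354). In both the lowest wild-type array was replicate 2, inside the mutant range. The values of col-12, one of a pair of near-identical collagens with col-13, were 10.99, 10.99 and 11.26 against 10.48, 10.89 and 10.23, without overlap (−0.55, adjusted p = 0.14). The differences of col-34, col-43, col-98, col-157, col-17, col-103 and col-145, the rest of the abundant class, lay between −0.56 and −0.27.

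The abundant collagens ordered the wild-type arrays alike. Wild-type replicate 3 was the highest wild-type array for all 22, and replicate 2 was the lowest for 21, the exception being col-12. Over all abundant genes these shares were 34.5% and 39.9%. The full order, replicate 2 below 1 below 3, held for 21 abundant (95.5%), 15 middle (44.1%) and 12 dim members (16.7%), beside 27.4% of abundant genes and 16.2% of all genes. The median of the 22 was 11.52, 10.86 and 11.93 in wild-type replicates 1 to 3 and 10.37, 10.71 and 10.43 in mutant replicates 1 to 3, while the median of all abundant genes stayed between 9.21 and 9.46. By this median wild-type replicate 2 was the wild-type array closest to the mutant arrays. It lay above all 3 of them for 10 of the 22 members, whereas replicate 1 did so for 21 and replicate 3 for 22. Of all 4416 abundant genes, 1859 did so for replicate 2, 1820 for replicate 1 and 1766 for replicate 3. The count for replicate 2 was thus near that of abundant genes, and those for replicates 1 and 3 were above it. The wild type was also the more variable genotype for these genes, with the larger SD in 17 of 22 (77.3%, against 35.5% of all abundant genes) and a median SD of 0.45 against 0.25 in the mutant.

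**Figure D4:**
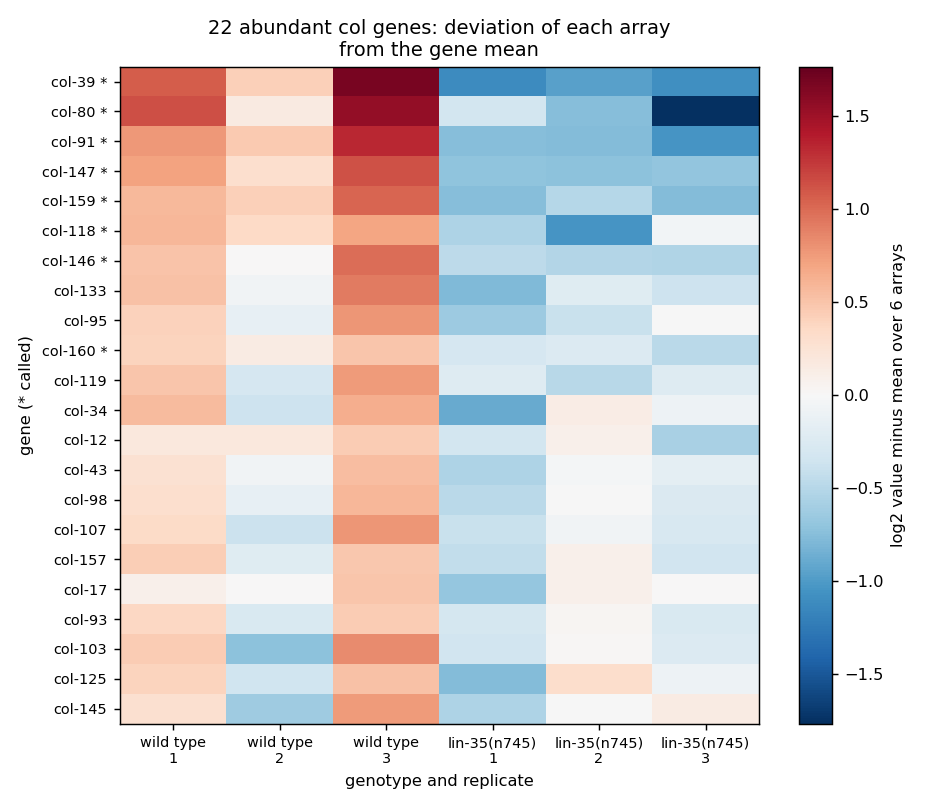
Deviation of each array from the gene's mean over 6 arrays (log2 units) for the 22 abundant COL genes, ordered by difference, with an asterisk on those called. Wild-type replicate 3 is the highest wild-type array in every row. Wild-type replicate 2 lies close to the mutant columns in the lower rows. It is above all 3 mutant arrays for 10 of 22 members, near the 1859 of all 4416 abundant genes.

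The median difference of the abundant members was −0.57, −0.85 and −0.43 on removing wild-type replicates 1, 2 and 3 in turn, and in the last case col-145 alone of the 22 was not negative. RNA quality also differed between arrays. The actin control reports on it as the signal near the 3' end of the transcript minus that near the 5' end, in log2 units, which rises as RNA is degraded. This lay between 0.53 and 0.78 in the wild type and was 2.31, 0.41 and 1.23 in mutant replicates 1 to 3. Compared with mutant replicate 2 alone, the mutant array of lowest actin difference, the abundant median was −0.45, 21 of 22 members were negative with col-125 as the exception, and 1 was called lower. That fit has a single mutant array, assumed to vary like the wild type, so few calls follow from its size. With the actin difference as a covariate the median was −0.52, col-125 was again the single member not below 0, and 4 abundant members were called lower. All 22 stayed negative when arrays were centred on their medians, normalised again by quantiles or by cyclic loess, with abundant medians of −0.68, −0.51 and −0.42.

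The kind of probe set divided the abundant members too. Probe sets marked _x_at contain probes that can match other sequences, and 16 of the 22 were of that kind, while 6 were plain _at probe sets that the design treats as specific. The 6 specific ones, for col-39, col-80, col-91, col-98, col-103 and col-118, had a median difference of −1.39 and 4 fell (66.7%, against 15.1% of all abundant genes read by such probe sets). These 4 include col-91, which passed the abundant limit through its wild-type values alone. The 16 others had a median of −0.55, with 4 falling (25%, against 7.42%). Over all abundant genes the medians of these kinds were −0.15 and −0.12. For col-157 and col-119 the abundant _x_at probe set (means over 6 arrays 10.14 and 9.78) had a second, dim probe set, which read 4.60 ± 0.37 and 5.53 ± 0.09 in the wild type and differed by −0.06 and −0.03. The part that cross-hybridisation plays in these differences was not tested.

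The members that rose were all of middle or dim brightness. The highest rise was that of col-109, which read 5.83, 5.19 and 5.02 in the wild type and 7.61, 7.69 and 6.94 in the mutant. Every mutant array lay above the wild-type range, with a difference of 2.07 (SE 0.28, limma adjusted p = 0.00597), or 4.2-fold. A second probe set of col-109 read 5.63 ± 0.18 and 5.47 ± 0.53 (SD, n = 3) and differed by −0.16 (limma adjusted p = 0.792). It was the dimmer of the 2 over all 6 arrays (5.55 against 6.38) but the brighter in the wild type (5.63 against 5.35). The probe set that stood for col-109 was thus chosen through its mutant values. The rise rests on 1 of its 2 probe sets, and the mean of both differed by 0.95. Next came col-48, with wild-type values of 5.01, 4.31 and 4.54 and mutant values of 5.84, 7.69 and 6.46. All mutant arrays were higher, but replicate 2 by far the most, and the difference was 2.04 (SE 0.45, adjusted p = 0.0303).

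Smaller rises of 2.89-fold, 2.85-fold and 1.78-fold were seen in col-113, col-74 and col-165. The values of col-113 were 5.64, 6.03 and 5.75 against 7.47, 7.86 and 6.69, a difference of 1.53 (SE 0.30, limma adjusted p = 0.0203). Those of col-74 were 5.15, 4.52 and 4.80 against 6.14, 6.71 and 6.15, a difference of 1.51 (SE 0.23, adjusted p = 0.0091). The smallest was col-165, from 6.78, 6.54 and 6.56 to 7.54, 7.70 and 7.14, a difference of 0.84 (SE 0.19, adjusted p = 0.0325). None of these groups overlapped. Removing wild-type replicate 1 (0.0802) or 3 (0.0549) ended the call of col-113, removing any wild-type array (0.068 to 0.0997) or mutant replicate 3 (0.0909) that of col-48, and removing any array except mutant replicate 3 that of col-165 (0.0732 to 0.0992). The count of members called higher was 3, 3 and 2 on removing wild-type replicates 1, 2 and 3, and 5, 5 and 4 on removing mutant replicates 1, 2 and 3. These counts include members not called with all arrays, col-121 on removing wild-type replicate 1, col-14 on removing mutant replicate 1 and col-69 on removing mutant replicate 2. Of all 22548 probe sets, 649, 853 and 1015 were called higher on the wild-type removals in the same order. On the mutant removals 1173, 983 and 996 were, beside 1282 with all arrays.

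A rise in col-97 was seen on its dimmer probe set alone, and this gene was picked out after its values were seen. The specific _at probe set read 5.56, 4.71 and 4.75 in the wild type and 7.37, 6.99 and 6.52 in the mutant, a difference of 1.96 (SE 0.30, limma adjusted p = 0.00928). The brighter probe set, which can match several transcripts, read 6.26 ± 0.05 and 6.54 ± 0.29 (SD, n = 3) and differed by 0.27 (adjusted p = 0.415). Just outside the threshold lay col-123 (−0.52, adjusted p = 0.0573), col-14 (0.97, 0.0606), col-69 (0.68, 0.0611) and col-137 (−0.51, 0.0612). Of the 113 members that were not called, 13 passed under at least 1 of the alternative settings. Among the 16 COL genes with more than 1 probe set, col-97 and col-109 were those in which the probe sets disagreed on the call. Both probe sets of col-147 (−1.42 and −1.31) and of col-160 (−0.68 and −1.05) were called lower.

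The stage markers col-2 and col-19 and the unusual member col-99 were dim and not called. The dauer collagen col-2 read 5.65 ± 0.05 in the wild type and 5.55 ± 0.08 in the mutant (SD, n = 3), a difference of −0.10 with a 95% interval of −0.42 to 0.22 (limma adjusted p = 0.724). The adult collagen col-19 read 5.85, 5.98 and 6.13 against 5.85, 5.29 and 6.42, a difference of −0.14 (interval −0.79 to 0.52, adjusted p = 0.841). The transmembrane collagen col-99, which is not a typical cuticle component, read 5.23 ± 0.07 and 5.16 ± 0.38 (SD, n = 3), a difference of −0.07 (interval −0.56 to 0.42, adjusted p = 0.893). For these 3 genes the groups overlapped. The early-studied collagens col-6, col-7, col-10 and col-13 had no probe set of their own under the single-gene rule and were not analysed here.

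Mutant replicate 3 read highest for many dim members, as it did for dim genes in general. It was the highest of all 6 arrays for 28 of 72 (38.9%), close to the 33.2% of all dim genes, and the median of the dim members was 5.20 there against 4.76 to 5.09 in the other arrays. An example picked for its size is col-105, at 6.53 in mutant replicate 3 and 4.50 to 4.85 elsewhere. The median difference of the dim members was −0.29 without mutant replicate 3 and −0.08 without mutant replicate 2.

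Position along the chromosome was followed through neighbouring protein-coding genes. The gene table places 22 members in 12 pairs of direct COL neighbours. In 2 pairs, col-39 with col-80 and col-159 with col-160, both genes fell, and all 4 are abundant. In 2 further pairs 1 gene fell, col-39 beside col-79 and col-142 beside col-141, and the other was dim and uncalled. The differences in the other 8 pairs lay between −0.59 and 0.53. No member that rose had a COL neighbour among the measured genes. The probe sets of col-159 and col-160 can match other sequences, whereas those of col-39 and col-80 are of the specific kind.

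Other genes of the cuticle were measured beside the family, and their counts are to be read against the 6.12% of all genes called lower, the 5.71% called higher and the median of −0.04 over all genes. Of 18 body-shape collagens, which the dpy, rol, sqt, bli and lon genes encode, 1 fell and none rose, a share near that of all genes (median −0.11, from −3.41 to 1.78). The gene that fell was dpy-5, needed for normal body length, which read 8.17, 7.80 and 9.75 in the wild type and 4.77, 6.39 and 4.34 in the mutant (−3.41, SE 0.66, limma adjusted p = 0.0194). Its groups did not overlap but its spread was wide, and removing wild-type replicate 1 (0.0549) or mutant replicate 3 (0.0788) ended the call. The body-shape collagens of the abundant class were not called and differed in both directions, dpy-13 by −0.60, dpy-4 by −0.56, sqt-3 by 0.04 and dpy-17 by 1.57 (adjusted p = 0.221).

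The family was set beside genes of collagen processing and crosslinking, not all of which encode enzymes. Some genes, such as ost-1 and nas-36, are counted in more than 1 list. Of 22 measured genes of this list none was called lower and 1 higher, again near the share of all genes, with a median of 0.19 (at an unadjusted p below 0.05, 5 were higher and 0 lower). The gene that rose was let-268, a procollagen lysyl hydroxylase that acts on basement membrane collagen. It read 6.80 ± 0.24 in the wild type and 7.50 ± 0.02 in the mutant (SD, n = 3), a difference of 0.70 (SE 0.17, limma adjusted p = 0.0375), and removing any 1 array ended this call (0.0548 to 0.112). The cuticle collagen prolyl hydroxylase dpy-18 differed by 0.93 (adjusted p = 0.154), the peroxidase mlt-7 by 0.72 (0.0739) and the dual oxidase bli-3, which supplies peroxide for crosslinking, by 0.09 (0.866). Of 37 cuticlins and related proteins 1 rose, the cuticlin-like gene cutl-22 (0.55, SE 0.14, adjusted p = 0.0457), and none fell (median 0.00). Removing any 1 array ended that call too (0.0666 to 0.157).

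None of 23 moulting factors was called in either direction by limma, where 11.8% of all genes were. Their median was 0.38, and an unadjusted limma p below 0.05 was reached upwards by 9 and downwards by 2. Among them the moulting regulator nhr-23 differed by 0.55 (limma adjusted p = 0.181). At that unadjusted limit 6 cuticlins were higher and 1 lower, and 1 body-shape collagen was higher and 1 lower. For epidermal transcription factors the counts were 4 and 0, and for intestine markers 3 and 2. The share of all genes at this limit was not counted, for these lists or the others. Of 13 epidermal transcription factors 1 rose and none fell (median 0.32). This was elt-1, the GATA factor that specifies epidermis, which went from 6.84, 6.60 and 6.91 to 7.26, 7.83 and 7.71 (0.82, SE 0.20, adjusted p = 0.04), a call that ended on removing any array except mutant replicate 1 (0.0749 to 0.119). Of 10 genes for basement membrane collagens and other matrix proteins none was called (1 was higher at an unadjusted p below 0.05), with a median of 0.80, among them the type IV collagens let-2 (1.47, adjusted p = 0.218) and emb-9 (0.91, adjusted p = 0.439). Wild-type arrays spread widely for these collagens too, with emb-9 at 10.36, 8.48 and 11.25 in the wild type and 10.79, 10.84 and 11.20 in the mutant. The wild-type order seen in the abundant COL genes held for 5 of these 10 genes (50%) and 6 of 13 epidermal transcription factors (46.2%). It also held for 5 of 18 body-shape collagens (27.8%) and 6 of 23 moulting factors (26.1%). For processing and crosslinking genes it held in 4 of 22 (18.2%), and for cuticlins in 2 of 37 (5.41%).

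Markers of other tissues were read to see whether they moved with the collagens. Of 10 muscle markers none was called, nor below 0.05 in unadjusted limma p (median −0.12), and the log2 of their summed level ran from 15.15 to 15.50 in the wild type and from 15.25 to 15.31 in the mutant. Wild-type replicate 2 was the lowest wild-type array for 8 of these 10, and replicate 3 the highest for 3. The body-wall myosin heavy chain unc-54 read 11.63, 9.21 and 12.60 in the wild type and 11.80, 12.12 and 12.37 in the mutant, and the myosin heavy chain myo-3 read 9.48, 7.37 and 10.42 against 8.87, 9.49 and 9.63. Both ordered the wild-type arrays as the abundant collagens did, and their part in the collagen result was not tested. That full order held for 3 of the 10 muscle markers (30%), near the 27.4% of all abundant genes, and for 1 of 9 intestine markers (11.1%). For the intestine markers replicate 2 was lowest in 3 and replicate 3 highest in 1. Of 9 intestine markers 2 rose and 1 fell (median 0.21), beside 5.71% of all genes called higher and 6.12% called lower. Most of these markers are abundant, a class in which 6.18% of all genes rose and 13.1% fell. The microvillar actin act-5 differed by 1.65 (limma adjusted p = 0.00187) and kept its call without any 1 array. The intestinal GATA factor elt-2 differed by 0.98 (0.0215) and the protease cpr-1 by −1.26 (0.0199). The call of elt-2 ended on removing replicates 1 (0.0733) or 3 (0.06) of the wild type, or replicates 2 (0.055) or 3 (0.0688) of the mutant. That of cpr-1 ended on removing replicates 2 (0.0651) or 3 (0.0568) of the wild type, or replicate 3 (0.0607) of the mutant. The log2 of the summed intestine level ran from 14.59 to 14.76 in the wild type and from 14.33 to 14.38 in the mutant. The aspartic protease asp-1 made up 54.9% to 59.5% of that sum in the wild type and had a difference of −0.49 that was not called (limma adjusted p = 0.0629), while 5 of the 9 markers had positive differences. Whether tissue proportions bear on the collagen differences was not tested.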

How the data were processed

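Each array's deposited values were log2 probe set signals that the authors made with RMA, per the submitters' processing notes, which give no version. RMA subtracts background, gives all arrays 1 distribution of probe signals and combines the probes of a set. Any filter before deposit is not given in the sources used here. Array medians lay between 5.91 and 6.11. The 77 control probe sets were left out and 22548 tested with limma 3.58.1 (lmFit, eBayes, two-sided) in R 4.3.3, with Benjamini-Hochberg adjustment. The fit had 4 residual and 3.24 prior degrees of freedom, and 3 arrays per genotype limit the precision. Names came from the platform annotation, and a WBcel235 gene table changed 0 symbols and served otherwise for neighbours alone. It lists 159 COL symbols, 3 of them pseudogenes. COL genes and gene lists were chosen with earlier results of these data known.

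Named genes were col-39, col-91, col-109 and col-159, 8 stage or type anchors, the 6 brightest members, up to 12 called members in the direction with more calls and up to 8 in the other, lin-35, and up to 3 called genes of each other list in the main direction and 1 in the other. Other genes in the text were picked after their values were seen. Alternatives were centring on medians, a second quantile normalization, loess (cyclic), removal of probe sets below the 50th percentile or of the _s_at and _x_at kinds, a trended and robust eBayes, weights per array, the replicate block, a floor at the 10th percentile, treat with a fold of 1.5, the actin covariate, mutant replicate 2 alone, each array left out, averaging probe sets per gene, and a split at the members' own median. The fit was tested on simulated data. Protein and promoter sequences were not analysed here.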

Additional observations from a re-analysis of the deposited data

How the results depend on the processing

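The medians of all, of abundant and of dim COL genes stayed negative in every alternative run. The median of all members was −0.46 with probe sets below the 50th percentile left out, which removes the dim members, and that of abundant members was −1.39 with _s_at and _x_at probe sets left out, which leaves 6. Over the arrays left out in turn the medians ranged from −0.35 to −0.17, from −0.85 to −0.43 and from −0.29 to −0.08. Counts of members called lower, 10 in the fit reported, were 15 with array weights, 12 with median centring, 6 without _s_at and _x_at probe sets, 5 with the actin covariate, 2 with treat, 2 with mutant replicate 2 alone (a fit with 1 mutant array), and 5 to 10 without 1 array. Counts called higher, 5 in that fit, were 7 with array weights, 6 with median centring, 1 with treat, 2 with mutant replicate 2 alone and 2 to 5 without 1 array. Abundant members called lower, 8 in that fit, numbered 5 with repeated quantiles, 4 with cyclic loess, 4 without _s_at and _x_at probe sets, 2 with treat, 4 with the actin covariate, 1 with mutant replicate 2 alone and 4 to 9 without 1 array. Dim members called lower, 0 in that fit (limma, adjusted p), numbered 3 with repeated quantiles, 1 with cyclic loess, 3 with array weights, 1 with the replicate block, 1 with the floor and 0 to 1 without 1 array. Dim members called higher, 2 in that fit, numbered 0 without probe sets below the 50th percentile, 0 with treat, 1 with mutant replicate 2 alone and 1 to 3 without 1 array. With the split at the members' own median, 3 members of the brighter part were called higher and 10 lower, and 2 and 0 of the dimmer part. With cyclic loess 7 members were lower and 6 higher. Calls over all probe sets shifted as well. The share called lower, 5.59% in the fit reported, was 9.39% with median centring, 7.42% with array weights and 6.47% with repeated quantiles. It was 5.62% without _s_at and _x_at probe sets, 4.47% with cyclic loess, 3.81% with the actin covariate and 0.483% with treat. Probe sets called higher, 1282 in that fit, numbered 1680 with array weights, 1277 with median centring, 1481 with cyclic loess and 414 with treat. The cause of these shifts was not tested where the alternative's own construction does not show it.

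Signs turned for uncalled genes alone. For col-125 the difference was 0.00 with the actin covariate and 0.13 with mutant replicate 2 alone. Over the arrays left out in turn it ran from −0.42 to 0.14 for col-19 and from −0.26 to 0.11 for col-99, positive without mutant replicate 2 alone. For lin-35 it was −0.02 with median centring, −0.00 with repeated quantiles and with array weights, −0.03 with the actin covariate and −0.07 to 0.18 over the arrays left out, negative on removing wild-type replicate 2 (−0.04) or mutant replicate 1 (−0.07).

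The labels do not say whether arrays that share a replicate number were paired. Deviations of same-numbered arrays correlated at 0.05, 0.08 and 0.07 across probe sets, and those of differently numbered arrays at −0.26 to 0.19. These values do not settle the pairing, because deviations from a mean of 3 arrays are not independent. Over all probe sets the replicate block gave 1514 calls higher and 1549 lower, beside 1282 and 1260 without it. With the replicate block 10 members were lower and 5 higher, 9 of the former and 5 of the latter being the same genes, and the abundant count was 7, without the call of col-160 (adjusted p = 0.0679). Calls of let-268 (0.0593), cutl-22 (0.0935) and elt-1 (0.0534) were also lost.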
